A study of Mus musculus with 2 samples.

Results

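The SLC25 genes encode the mitochondrial carrier family, and chromatin occupancy by the thyroid hormone receptor TRα1 near these genes was examined in brown adipocytes. The members are the autosomal protein-coding genes whose symbol begins with Slc25a in the basic GENCODE annotation of GRCm38 (mm10), which gave 43 of 20807 autosomal protein-coding genes. A TR binding site (TRBS) was assigned to a gene when its summit, where most fragments piled up, lay at most 30 kb from the transcription start site (TSS). By this rule 12 of the 43 carrier genes had a TRBS, and together they had 24 of the 5107 TRBS of the deposited list. The X-linked family members Slc25a5, Slc25a14, Slc25a43 and Slc25a53 were outside the rule, and none of these 4 genes had a TRBS within 30 kb.

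The list came from 1 ChIP library and 1 input library of brown adipose tissue from male C57BL/6J mice aged 8 to 12 weeks. All animals carried GS-tagged TRα1, a receptor fused to a protein tag and expressed in brown adipocytes alone. The Cre line or promoter behind this restriction is not given in the sources used here. All of them were hypothyroid from propylthiouracil in the diet, and both libraries came from mice that had then received thyroid hormone for 24 h. The data have no replicate and no group without hormone was analysed here, so no difference between conditions was tested. The number of animals behind each library is not given in the sources used here.

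Mitochondrial carriers sit mostly in the inner mitochondrial membrane and exchange metabolites between the cytosol and the matrix. They bring in phosphate, ADP, acylcarnitines, amino acids, cofactors and iron, and they carry out ATP and citrate. Brown adipocytes are rich in mitochondria and burn fatty acids and other fuels to produce heat, and the uncoupling protein UCP1 that dissipates the proton gradient belongs to the same protein family. Thyroid hormone acts on genes through TR bound to DNA, mostly together with RXR. The preferred element is the DR4, a direct repeat of the half-site AGGTCA with a spacer of 4 bases, in which RXR takes the upstream and TR the downstream half-site.

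The following sequences show the DR4 elements at the TRBS on which the results turn, because a DR4 is the part of a site that the receptor is known to contact. Each is written 5′ to 3′ on the strand of the element, from the mouse genome GRCm38, with the bases of both half-sites in capitals. The coordinates are chr8:70194305-70194366 on the plus strand for Slc25a42, chr13:56421397-56421449 on the minus strand for Slc25a48, chr4:149758566-149758618 on the minus strand for Slc25a33, chr2:32469990-32470035 on the plus strand for Slc25a25, chr4:45413872-45413932 on the minus strand for Slc25a51 and chr7:141456265-141456314 on the plus strand for the shared site of Slc25a22 and Pnpla2.
Slc25a42: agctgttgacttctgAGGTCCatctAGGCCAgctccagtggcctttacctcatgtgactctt
Slc25a48: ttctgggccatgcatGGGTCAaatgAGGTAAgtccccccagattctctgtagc
Slc25a33: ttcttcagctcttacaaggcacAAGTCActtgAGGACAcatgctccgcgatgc
Slc25a25: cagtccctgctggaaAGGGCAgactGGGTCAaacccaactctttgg
Slc25a51: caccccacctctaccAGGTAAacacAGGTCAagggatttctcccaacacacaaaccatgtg
Slc25a22: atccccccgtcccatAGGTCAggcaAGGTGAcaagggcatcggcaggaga
None of these elements was a perfect DR4. Positions are counted from 1 at the 5′ end of the 16-base element, and the base of the repeat of AGGTCA comes first. The Slc25a51 element differed only by C5A and the Slc25a22 element only by C15G. The others each had 2 changes, which were A6C and T14C for Slc25a42, A1G and C15A for Slc25a48, G2A and T14A for Slc25a33, and T4G and A11G for Slc25a25.

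A TRBS was present near 27.9% of the carrier genes (12 of 43, 95% Wilson interval 16.7 to 42.7%). The share over all autosomal protein-coding genes was 17.3% (3610 of 20807), a value inside the interval of the carriers. With scores of at least 60 alone the share of all genes was 14.6%, below the unchanged interval of the carriers. With each TRBS given only to its nearest gene, the shares were 20.9% (11.4 to 35.2%) for carriers and 10.2% for all genes, which was also below the interval. More than 1 TRBS was found for 5 of the 43 carriers, and for 4.77% of all autosomal protein-coding genes. Within 10 kb, 7 carriers (16.3%, 8.12 to 29.97%) had a TRBS, beside 8.38% of all genes. Within 100 kb, 26 carriers (60.5%, 45.6 to 73.6%) had one, beside 39.8% of all genes. The value for all genes lay inside the interval of the carriers at 10 kb and below it at 100 kb. The intervals cover counting error alone and treat genes as independent, so the carriers are described here and no test of the family was made.

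Other gene groups were set beside the carriers at 30 kb. A TRBS was present for 24.8% (20.3 to 29.8%) of 315 other Slc genes, which encode transporters of other families. Genes whose symbol begins with Nduf, which encode subunits and assembly factors of respiratory complex I, had one in 27.3% of 44 cases (16.3 to 41.8%). Genes of mitochondrial ribosomal proteins had one in 17.9% of 78 cases (11.0 to 27.9%). The intervals of these groups overlapped with that of the carriers at each distance.

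**Figure D1:**
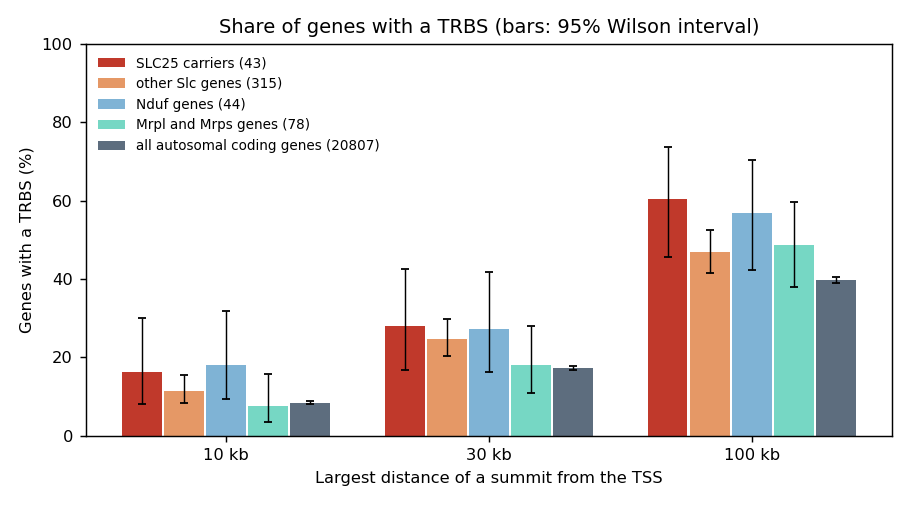
Share of genes with a TRBS (%, vertical axis) for summits within 10, 30 and 100 kb of the TSS (horizontal axis) in 5 gene groups, with the number of genes in the legend and bars for the 95% Wilson interval. At 30 kb the carriers stand at 27.9%, the Nduf genes at 27.3% and all autosomal coding genes at 17.3%, and the interval of the carriers is wide at every distance.

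The occupied genes were grouped by the substrate each carrier is known to transport. Carriers of cofactors and nucleotides had a TRBS in 4 of 9 cases, with 11 TRBS among them. Slc25a33, Slc25a42 and Slc25a51 were 3 of these genes. Carriers of iron and glutathione had one in 2 of 4 cases, Slc25a28 and Slc25a39. Amino acid carriers had one in 2 of 9 cases, Slc25a15 and Slc25a22. Among the 7 carriers of ADP, ATP and phosphate, Slc25a25 alone had a TRBS within 30 kb. None was present near the 4 carriers of di- and tricarboxylates, the 2 genes akin to uncoupling proteins or the carnitine carrier. The remaining 3 genes, Slc25a35, Slc25a45 and Slc25a48, came from the 7 carriers for which no substrate is given here. With at most 9 genes per group, no difference between substrates was tested.

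**Figure D2:**
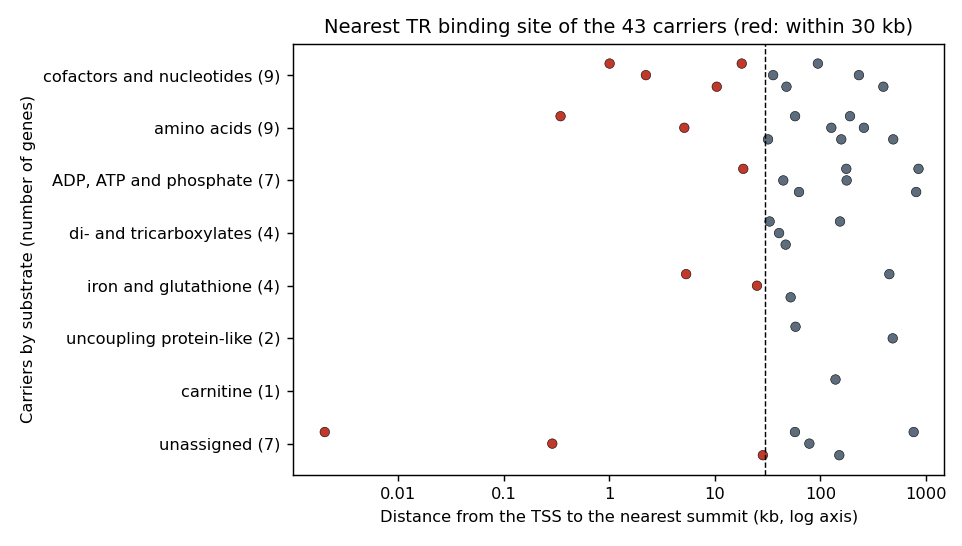
Distance from the TSS to the nearest TRBS summit (kb, log axis) for each of the 43 carriers, by substrate group with the number of genes. Red points lie within 30 kb (dashed line), as for 12 of the 43 carriers. By group, 4 of the 9 cofactor and nucleotide carriers are red and 0 of the 4 carriers of di- and tricarboxylates. In the latter group Slc25a21, Slc25a11 and Slc25a10 have summits at 33003, 40575 and 46845 bp, so the counts depend on the limit.

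The number of ChIP fragments at each summit was worked out from the deposited fold and p-value, and it is given with its 95% Poisson interval for counting error. The libraries had no molecular identifiers stated, so fragments may include copies of 1 molecule. The TRBS near carriers had a median of 24 fragments, with a lowest value of 9 and a highest of 56. Of the 2873 TRBS near autosomal protein-coding genes, the 2855 for which a whole number of fragments was found had a median of 17. A total of 17 of the 24 lay above this median, and for 8 of them the whole Poisson interval did. A count of 26 has an interval from 16.98, just below the median, and the upper quartile of all TRBS near genes was 27. The share of all these TRBS with an interval above the median was not counted. The deposited fold, which divides the ChIP signal at the summit by the local input after 1 is added to both, had a median of 12.9 near carriers (95% interval of the median 9.09 to 23.1) and 9.77 near all genes. The value for all genes was again inside the interval of the carriers.

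**Figure D3:**
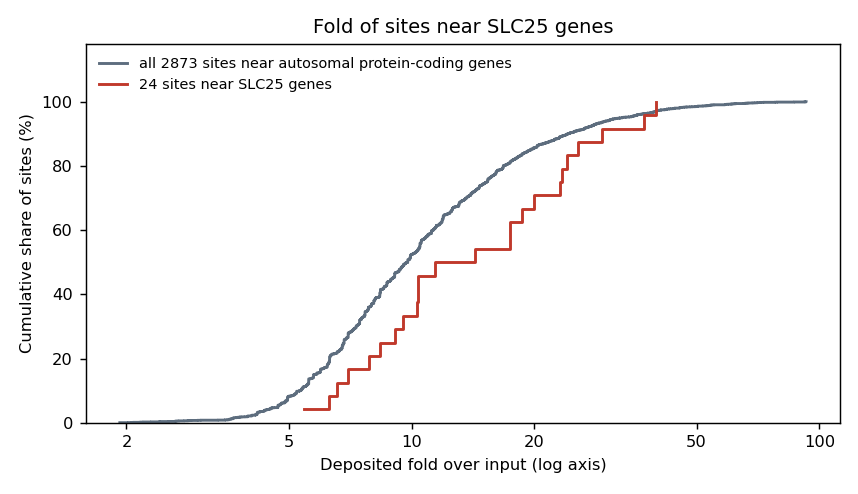
Cumulative share of TRBS (%, vertical axis) by deposited fold over input (log axis) for the 24 TRBS near carriers and the 2873 TRBS near autosomal protein-coding genes. The carrier curve lies to the right over most of its length, with medians of 12.9 and 9.77, and it ends at a fold of 39.9.

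Among the carriers of cofactors, Slc25a42 had the TRBS with the highest fold and most fragments of the 24. This gene encodes the carrier of coenzyme A, the acyl carrier of fatty acid oxidation. Its only TRBS (chr8:70194053-70194632) lay in an intron of Slc25a42 itself, 17959 bp downstream of the TSS. It had 56 fragments (42.3 to 72.7), a fold of 39.9 and an input background of 0.430 fragments on the ChIP scale, the genome-wide floor that 6 of the 24 sites shared. The fold ranked at position 150 among all 5107 TRBS. The centre of its DR4 was 18.5 bp from the summit. Slc25a16, the other carrier linked to coenzyme A, had no TRBS within 30 kb, and its nearest summit lay 47666 bp upstream.

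Slc25a33 encodes a carrier of pyrimidine nucleotides, which supply the synthesis of mitochondrial DNA and RNA. It had 4 TRBS and was the nearest protein-coding gene to all of them. The strongest (chr4:149758233-149758782) lay in its own intron, 15679 bp downstream, with 48 fragments (35.4 to 63.6) and a fold of 25.6. The other 3 were intergenic and upstream, at 10412, 15669 and 18233 bp, with 26, 22 and 22 fragments. Their Poisson intervals, which spanned 13.8 to 38.1 fragments in all, overlapped with each other. A DR4 was present in 3 of the 4 and absent from the site at 15669 bp, which held an exact half-site. Slc25a36, the second carrier of pyrimidine nucleotides, had its nearest TRBS 231883 bp away.

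Slc25a51 encodes the carrier that brings NAD into mitochondria. Its 3 TRBS were all within 10 kb of the TSS, and no other protein-coding TSS lay within 30 kb of them. The central and widest of the 24 sites (chr4:45411104-45412581), of 1478 bp and 2620 bp upstream, had 42 fragments (30.3 to 56.8), a fold of 23.4 and 5 exact half-sites. The site at 5126 bp upstream had 22 fragments (13.8 to 33.3) and the DR4 with 1 change shown above. The remaining site, in an intron 1004 bp downstream, had 15 fragments (8.40 to 24.7) and no DR4.

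**Figure D4:**
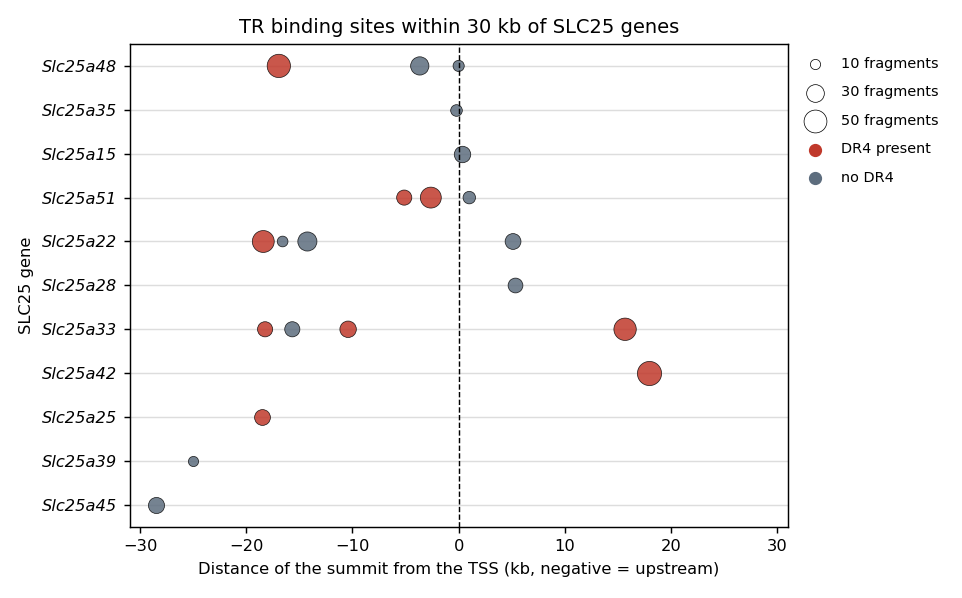
Position of 21 TRBS relative to the TSS of 11 carrier genes (kb, negative values upstream), with the area of a point proportional to its ChIP fragments and red for a DR4. Slc25a33 and Slc25a22 have 4 sites each, and the largest points are those of Slc25a42 at 56 fragments and Slc25a48 at 52 fragments.

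Among amino acid carriers, Slc25a22 encodes a glutamate carrier and had 4 TRBS, but in a gene-dense region. None of the 4 had Slc25a22 as its nearest protein-coding gene. The site in its own intron (chr7:141432497-141432972), 5125 bp downstream, had 24 fragments (15.4 to 35.7) and lay 3276 bp upstream of the TSS of Cend1. The other 3 were 14248, 16581 and 18402 bp upstream of Slc25a22, and Pnpla2, which encodes the triglyceride lipase ATGL, was their nearest gene. They had 35, 11 and 46 fragments. The last and strongest (chr7:141455876-141456613), with a fold of 29.3, lay in an intron of Pnpla2, 1096 bp downstream of its TSS, and held the DR4 with 1 change. Slc25a15 encodes the ornithine carrier of the urea cycle. Its TRBS (chr8:22397906-22398355) lay in an intron 344 bp downstream of the TSS, with 26 fragments (16.98 to 38.1), a fold of 9.55 and no DR4. The summit was also in the promoter of 1810012K16Rik, which is not a protein-coding gene. The background there was 1.83 fragments, the highest among the sites near carriers.

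Slc25a25 encodes a calcium-regulated carrier that exchanges ATP-Mg for phosphate. Its TRBS (chr2:32469864-32470246) was intergenic and 18570 bp upstream, with 24 fragments (15.4 to 35.7), a fold of 17.5 and a DR4 centred 2.5 bp from the summit. Slc25a25 was the nearest protein-coding gene. The related ATP-Mg carriers Slc25a23, Slc25a24 and Slc25a41 had no TRBS within 30 kb. The nearest summit to Slc25a41 and Slc25a23 was the same TRBS, 44476 and 62685 bp downstream. For Slc25a24 it lay 808901 bp upstream.

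Of the iron carriers, Slc25a28 (mitoferrin 2) had 1 intronic TRBS (chr19:43669384-43669696) 5334 bp downstream, with 21 fragments (13.0 to 32.1), a fold of 11.4 and no exact half-site. Slc25a37 (mitoferrin 1) had none within 30 kb, and its nearest summit lay 52241 bp upstream with 42 fragments. The glutathione carrier Slc25a39 was assigned a TRBS of 10 fragments (4.80 to 18.4) 25044 bp upstream (chr11:102432836-102433131). This site lay in a coding exon of Grn, the progranulin gene, which was also the nearest gene. The paralogue Slc25a40 had its nearest summit 450352 bp away.

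Of the carriers without a substrate given here, Slc25a48 had the TRBS that came second among the 24 in fold and fragments. Its site 16938 bp upstream (chr13:56421156-56421761) had 52 fragments (38.8 to 68.2) and a fold of 37.1, and its DR4 was centred 9.5 bp from the summit. The predicted gene Gm3045 was nearer to it, at 5177 bp. A second site, 3661 bp upstream, had 32 fragments (21.9 to 45.2), no DR4 and 2 exact half-sites. The last of its 3 sites had its summit 2 bp from the TSS (chr13:56438221-56438997), with 12 fragments (6.20 to 21.0). Slc25a35 had 1 TRBS in its promoter, 287 bp upstream (chr11:68967675-68968015), with 13 fragments (6.92 to 22.2) and a fold of 6.97. Slc25a45 was assigned a TRBS 28479 bp upstream (chr19:5849018-5849766), with 25 fragments (16.2 to 36.9) and 3 exact half-sites. The summit lay outside protein-coding genes but in an intron of Frmd8os, a gene of another type. This was the site closest to the limit of 30 kb, and Frmd8 was nearer to it, at 25945 bp.

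The gene starts of Slc25a35 and Slc25a48 are shown because the TRBS summits closest to them had no DR4. The site 344 bp from the start of Slc25a15 had none either, and its run of 81 bases, with 0 exact half-sites, is not printed. Both printed runs, also of 81 bases, are on the plus strand, which is the strand of these genes. The first is centred on the summit (chr11:68967804-68967884) and the second ends at the base before the TSS (chr13:56438274-56438354), and capitals mark an exact half-site on either strand.
Slc25a35: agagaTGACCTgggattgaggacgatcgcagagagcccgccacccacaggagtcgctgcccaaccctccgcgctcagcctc
Slc25a48: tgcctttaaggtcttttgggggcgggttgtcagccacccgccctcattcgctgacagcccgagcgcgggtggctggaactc
The Slc25a35 run held 1 half-site, written here as its reverse complement TGACCT, and the Slc25a48 run held 0. These letters alone do not show how the receptor was held at either site.

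**Figure D5:**
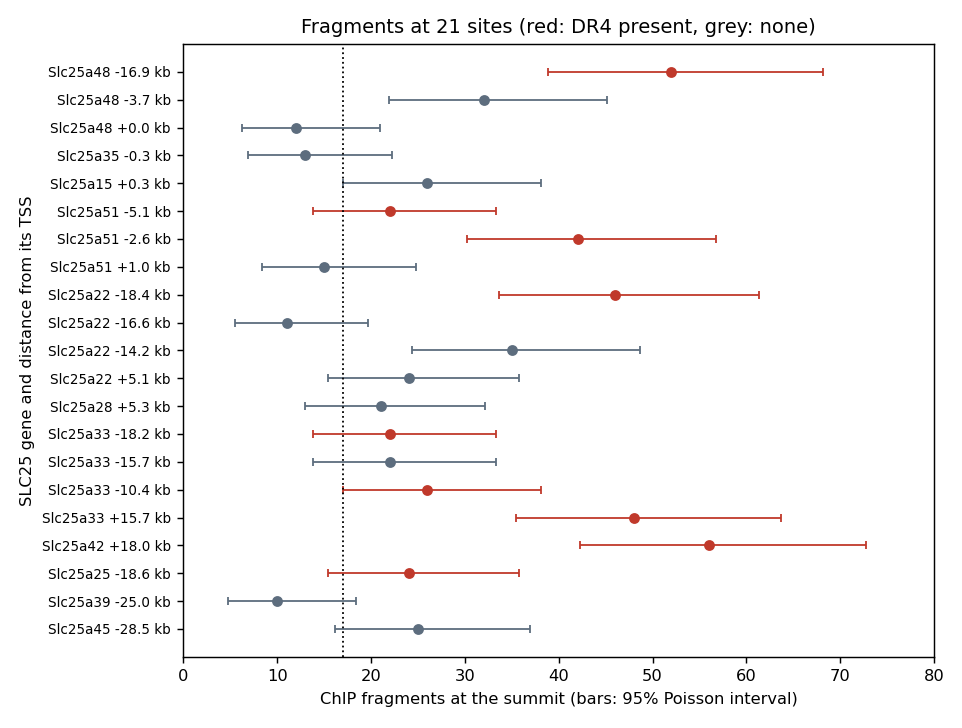
ChIP fragments at the summit of each of 21 TRBS near 11 carriers (horizontal axis) with the 95% Poisson interval, by carrier gene and distance from its TSS, in red for a DR4. The dotted line is the median of 17 fragments of the 2855 TRBS near autosomal protein-coding genes with a whole number found, and the 5 plotted sites with at least 40 fragments are all red.

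A DR4 with at most 2 changes was present in 45.8% of the TRBS near carriers (11 of 24, 27.9 to 64.9%). The share was 30.3% (28.6 to 32.0%) of all 2873 TRBS near autosomal protein-coding genes, which is inside the interval of the carriers. Flanking windows as wide as the site and 2 kb away on either side held one in 1 of 40 cases near carrier TRBS and in 5.39% of 5527 cases near all of these TRBS. With at most 1 change, 2 of the 24 (8.33%, 2.32 to 25.8%) held a DR4, beside 201 of the 2873 TRBS near genes (6.996%). The value for all genes lay inside this wide interval, which rests on 2 sites. The elements lay close to the summits, at a median distance of 9.5 bp, and 9 of the 11 were within 20 bp. Over all 870 elements near genes the median distance was 23.5 bp, and 43.3% were within 20 bp. The most frequent change was at position 14, the fourth base of the downstream half-site, which differed in 5 of the 11 elements and in 39.4% of the 870.

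The TRBS with a DR4 had a median of 40 fragments (11 to 56), and the 13 without one had a median of 21 (9 to 35). The ranges overlapped, from 11 to 35 fragments. Near all genes the medians were 20 with and 16 without a DR4. All 6 carrier TRBS with at least 40 fragments, a limit chosen after the values were seen, held a DR4, beside 44.4% of the 369 TRBS of that strength near all genes. They included the strongest sites of Slc25a42, Slc25a48, Slc25a33, Slc25a22 and Slc25a51. Each of the 5 carriers with several TRBS had at least 1 with a DR4, and 2 of the 7 carriers with a single TRBS did, which were Slc25a25 and Slc25a42. Over all genes the shares were 56.3% of 993 genes with several TRBS and 30.8% of 2617 genes with 1. A gene with more sites has more chances to hold an element, and the part of this in the shares was not tested.

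Other motifs were searched on both strands of the whole site. An exact half-site AGGTCA was present in 16 of the 24 TRBS near carriers (66.7%, 46.7 to 82.0%), and in 55.1% of all TRBS near genes. Flanking windows held one in 15 of 40 cases near carrier TRBS and in 28.4% of cases near all TRBS near genes. A DR1, the repeat with a spacer of 1 base bound by PPAR with RXR, was found in 5 with at most 2 changes, and in 14.4% of all TRBS near genes. Flanking windows of the carrier sites held a DR1 in 9 of 40 cases, and those of all TRBS near genes in 8.23%. The motif TTGCGCAA of C/EBP, factors of adipocyte differentiation, was present with at most 1 change in 8 of 24 (33.3%, 18.0 to 53.3%) and in 11.2% of all TRBS near genes. Flanking windows of the carrier sites held it in 0 of 40 cases, which allows up to 8.76% (upper Wilson bound), and those of all TRBS near genes in 5.93%. The C/EBP share was the one motif share for which the value near all genes lay outside the interval of the carriers. It was 1 of 6 motif searches and no adjustment for their number was made. The TRBS near carriers were wider than all TRBS near genes, with medians of 541.5 and 429 bp, and the part of width in the motif shares was not tested. The exact palindrome of EBF, another adipocyte factor, was present in 2 of 24 and in 4.25% of all TRBS near genes.

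By region, 10 of the 24 TRBS were in introns and 10 were intergenic, with 3 in promoters and 1 in a coding exon. Of the intronic sites, 9 lay in the carrier gene itself and 1 in Pnpla2, and of the promoter sites, 2 belonged to the carrier. The share in introns was 41.7% (24.5 to 61.2%), beside 47.6% of all TRBS near genes. Regions were set by protein-coding genes alone, and with genes of every type the share in introns near carriers was 37.5%. The intergenic share was 41.7%, beside 31.5%. The summits were upstream of the TSS of the carrier in 14 cases and downstream in 10, or 41.7% (24.5 to 61.2%) downstream. Over all 5356 pairs of a gene and a TRBS, 53.1% were downstream. For 16 of the 24, the carrier was the nearest protein-coding gene, and 9 of the 12 carriers were nearest to at least 1 of their sites. Slc25a22, Slc25a39 and Slc25a45 were not. As shares, 20.9% of all carriers and 10.2% of all genes were nearest to at least 1 TRBS, beside 27.9% and 17.3% with a TRBS within 30 kb.

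The remaining 31 carriers had no TRBS within 30 kb. A summit between 30 and 100 kb was present for 14 of them, and 17 had none within 100 kb. Just outside the limit lay Slc25a44, the carrier of branched-chain amino acids, with a summit 31866 bp upstream that had 7 fragments and a fold of 5.32. Slc25a21, a carrier of 2-oxoadipate, followed with a summit 33003 bp upstream and 17 fragments, and the peroxisomal cofactor carrier Slc25a17 with one 35623 bp downstream and 19 fragments. Beside these counts, 60.5% of the carriers and 39.8% of all genes had a summit within 100 kb. The nearest summit lay 136486 bp from Slc25a20, which brings acylcarnitines in for oxidation, 153491 bp from Slc25a1, the citrate carrier, 176004 bp from Slc25a4, an ADP and ATP carrier, and 851392 bp from Slc25a3, the phosphate carrier. Slc25a13 and Slc25a12, the aspartate and glutamate carriers of the malate-aspartate shuttle, had theirs at 258594 and 490220 bp. The carriers Slc25a11 and Slc25a10 of 2-oxoglutarate and dicarboxylates had one at 40575 and 46845 bp.

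Neighbouring carriers shared a nearest site in other cases. The adjacent genes Slc25a47 and Slc25a29, on opposite strands, had the same nearest TRBS of 9 fragments, 57385 and 57548 bp away. Slc25a54 and Slc25a24 also shared one, 766221 and 808901 bp upstream. The genes Slc25a30 and Slc25a27, akin to uncoupling proteins, had their nearest summits at 58116 and 484936 bp. Slc25a26, the carrier of S-adenosylmethionine, and Slc25a32, linked to folate and FAD, had theirs at 94695 and 395093 bp. The second ornithine carrier Slc25a2 and the ADP and ATP carrier Slc25a31 had theirs at 190876 and 177310 bp. For Slc25a34, without a substrate given here, it lay at 78587 bp, and for Slc25a46, a protein of the outer membrane that shapes mitochondria, at 151044 bp. The glutamate carrier Slc25a18 and the glycine carrier Slc25a38 had theirs at 157642 and 126911 bp. A missing TRBS is not evidence of an unoccupied gene at this depth. The weakest TRBS of the list had 5 fragments, and the ChIP library was estimated at 2.91 M (M, mega) fragments and the input library at 9.57 M.

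Family members with other symbols were outside the rule. Ucp1, which encodes the uncoupling protein of brown fat, had 5 TRBS within 30 kb. Its highest fragment count was 362 and its highest fold 65.2, beside 56 fragments and a fold of 39.9 for Slc25a42. Ucp3 had 5 and Ucp2 had 3, and these adjacent genes had the same highest value of 69 fragments. No TRBS of Ucp2 or Ucp3 held a DR4, and 1 of the 5 TRBS of Ucp1 did. Mtch2 had 3 TRBS of at most 20 fragments, 1 of them with a DR4, and Mtch1 had no TRBS.

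Neighbouring genes were counted because a TRBS can be assigned to several genes. A carrier with a TRBS had a median of 1.5 other protein-coding TSS within 30 kb of its own, a carrier without one had 1, and the median over all autosomal protein-coding genes was 1. The part of gene density in the shares of genes was not tested.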

How the data were processed

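TRα1 occupancy was measured by ChIP-seq in 1 ChIP library and 1 input library. The deposited file is a MACS narrow peak list. Per the labels' processing notes, the authors aligned paired-end reads to mm10 with Bowtie2 2.3.2.2 and called peaks with MACS2 2.1.1.20160309.6. The deposited score is 10 times the −log10 q-value, the deposited fold is the ratio of ChIP pileup to input background after a pseudocount of 1, and the deposited p-value and q-value are given as −log10. Peaks with a score under 60 had not been removed, and all 5107 were kept.

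Genes and 1 TSS per gene came from basic GENCODE M21, and sequences from RefSeq GRCm38.p6. Promoters spanned 1000 bp upstream to 100 bp downstream, and regions were ranked promoter, 5′ UTR, 3′ UTR, coding exon, intron, intergenic. Regions were taken from protein-coding genes alone, so an intergenic site can lie in a gene of another type. Fragments were the whole number that gave the deposited fold and the −log10 p within 0.0005, found for 5089 TRBS. Depth was estimated from the lowest background, the smallest peak width of 276 bp and the default mouse genome size of MACS. Searches were tested on simulated data. Limits of 10 and 100 kb, a score of at least 60, other TSS choices and other mismatch limits were tried as alternatives. Shares have 95% Wilson intervals, and no test was made with 1 library per group. Substrates were assigned by hand from background knowledge. The rule named carriers with a TRBS and those without one in the same substrate group, and the remaining carriers were added so that all are accounted for. Of the 12 carriers with a TRBS, 1 is not reported here by name and counts only in the totals. The members and lists were chosen with earlier results of these data known. Python 3.11.15, scipy 1.17.1 and pysam 0.24.0 were used.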

Additional observations from a re-analysis of the deposited data

How the results depend on the processing

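Of 52 values recomputed under alternatives, 37 stayed inside the interval of the reported value, or within 1.5 times a count, and 15 moved. Keeping scores of at least 60 left all 12 carriers with a TRBS and 23 of the 24 TRBS, while the share of all autosomal protein-coding genes with a TRBS moved to 14.6%. With a limit of 10 kb, 7 carriers (16.3%) had 12 TRBS, 3 had more than 1, and the share of all genes was 8.38%. With 100 kb, 26 carriers (60.5%) had 62 TRBS, 12 had more than 1, and the share of all genes was 39.8%. The share of all genes was 18.0% with the start of every transcript as TSS and 10.2% when each TRBS was given only to the nearest gene, where 9 carriers (20.9%) and 16 TRBS were left. The DR4 share of carrier TRBS was 8.33% with at most 1 mismatch and 66.7% with at most 3. Depth and the lack of a replicate limit all values, and a site present in 1 library has no check in a second.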
